A study of Mus musculus with 6 samples.

Results

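The Notch pathway genes described here are 3 receptors (Notch1, Notch2 and Notch3), 4 ligands (Dll1, Dll4, Jag1 and Jag2) and 3 transcriptional targets (Hes1, Hes5 and Hey1). They were taken by name, as every probe whose transcript maps to 1 of these 10 symbols. The set holds 11 of the 56605 probes on the array, since Hes5 had 2 probes and each other gene had 1, and 10 of the 22911 genes that could be named. The cells were C8D1A, a cloned astrocyte line from mouse, so all 6 samples came from 1 clone. The PRF group held 3 samples of cells exposed to pulsed radiofrequency, an electrical treatment given in short bursts that is used against chronic pain. The Control group held 3 samples of untreated cells. Both groups were grown for 6 days in medium with 10% serum and then kept for 24 h without serum. The series' design text speaks of 3 independent experiments, and the comparison asks how PRF altered gene expression. The settings of the pulses and the time between exposure and harvest were not stated in the labels.

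Notch signalling passes between touching cells. A ligand of the Delta or Jagged family on the sending cell binds a Notch receptor on its neighbour, the receptor is cut by ADAM proteases and then by gamma-secretase, and the freed intracellular domain enters the nucleus. There it joins the DNA-binding protein RBPJ and a Mastermind coactivator and switches on HES and HEY genes, whose products repress other genes, among them the proneural factors of the bHLH class. In the developing brain this pathway holds progenitor cells in an undifferentiated state and favours the astrocyte fate, and adult astrocytes carry Notch receptors.

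The promoters of the 3 ligands called higher below are shown with that of Hes5, a direct RBPJ target. Each is the 250 bases upstream of the annotated start in RefSeq's GRCm38.p6 assembly, given on the gene's own strand. The table held 8 of the 10 members, and Hes1 and Hey1 are named only. Capitals mark matches, on either strand, to the RBPJ core TGGGAA, the HES N-box CACNAG, the AP-1 site TGANTCA, the cyclic AMP response element core TGACG or the heat shock element GAANNTTC. The Jag1 window is at chr2:137116521-137116770 on the minus strand, Jag2 is at chr12:112929496-112929745 on the minus strand, and Hes5 is at chr4:154960673-154960922 on the plus strand. Dll1 has 2 annotated starts, with windows at chr17:15376933-15377182 and chr17:15375824-15376073, both on the minus strand.
Jag1: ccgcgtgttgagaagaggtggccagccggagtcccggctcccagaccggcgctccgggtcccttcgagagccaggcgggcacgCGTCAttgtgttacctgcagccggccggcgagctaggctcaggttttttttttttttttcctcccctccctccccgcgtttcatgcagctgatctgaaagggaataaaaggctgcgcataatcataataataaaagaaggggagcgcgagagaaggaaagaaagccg
Jag2: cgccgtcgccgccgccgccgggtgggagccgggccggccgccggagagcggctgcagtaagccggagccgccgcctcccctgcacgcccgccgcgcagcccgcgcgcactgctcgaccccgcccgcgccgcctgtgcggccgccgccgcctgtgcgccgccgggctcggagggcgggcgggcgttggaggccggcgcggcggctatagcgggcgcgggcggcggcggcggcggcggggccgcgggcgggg
Dll1, first window: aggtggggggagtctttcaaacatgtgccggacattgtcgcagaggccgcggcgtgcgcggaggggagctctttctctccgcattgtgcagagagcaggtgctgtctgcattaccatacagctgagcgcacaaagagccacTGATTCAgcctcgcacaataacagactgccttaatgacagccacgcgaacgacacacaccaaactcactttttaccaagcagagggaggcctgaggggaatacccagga
Dll1, second window: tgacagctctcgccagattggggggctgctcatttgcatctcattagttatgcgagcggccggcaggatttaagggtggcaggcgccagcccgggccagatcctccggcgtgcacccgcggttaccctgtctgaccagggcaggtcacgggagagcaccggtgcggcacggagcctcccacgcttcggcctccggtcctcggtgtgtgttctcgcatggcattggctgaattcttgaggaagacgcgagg
Hes5: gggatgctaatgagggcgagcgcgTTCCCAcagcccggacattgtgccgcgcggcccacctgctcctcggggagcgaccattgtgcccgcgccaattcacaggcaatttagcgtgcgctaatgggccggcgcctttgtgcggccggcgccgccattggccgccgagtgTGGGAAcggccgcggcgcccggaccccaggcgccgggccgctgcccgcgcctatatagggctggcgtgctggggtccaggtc
Hes5 held the RBPJ core at 2 places, Jag1 held 1 CRE core and the first Dll1 window held 1 AP-1 site, while Jag2 and the second Dll1 window held none of the 5 motifs. Of 32851 promoter windows of the same length, 21.6% held the RBPJ core, 36.7% the N-box, 6.75% the AP-1 site, 17.8% the CRE core and 6.69% the heat shock element. Among the other members, Notch1, Notch2, Notch3 and Dll4 held the N-box and Notch3 also held the CRE core. A match shows only that these letters are in the window.

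Levels below are log2 processed signals relative to the 75th percentile of the same array, so 0 is the level of a fairly bright probe and each step of 1 is a doubling. They compare arrays for 1 probe and do not rank genes against each other. A change is the mean PRF level minus the mean Control level, tested with limma across all 34838 probes that the scanner software called well above background throughout the PRF arrays, the Control arrays or both. Adjusted p-values are Benjamini-Hochberg values with a threshold of 0.05, and errors of levels are SDs with n = 3. Of the 11 member probes, 8 entered the test; the single Dll4 probe and both Hes5 probes stayed at background everywhere. Of those 8, 3 passed, all of them higher in PRF cells (37.5%). The background was high: 31.1% of all tested probes passed in either direction, with 18.4% higher and 12.7% lower. The share of members called is therefore near that of the whole array, and the results below concern the single genes.

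**Figure D1:**
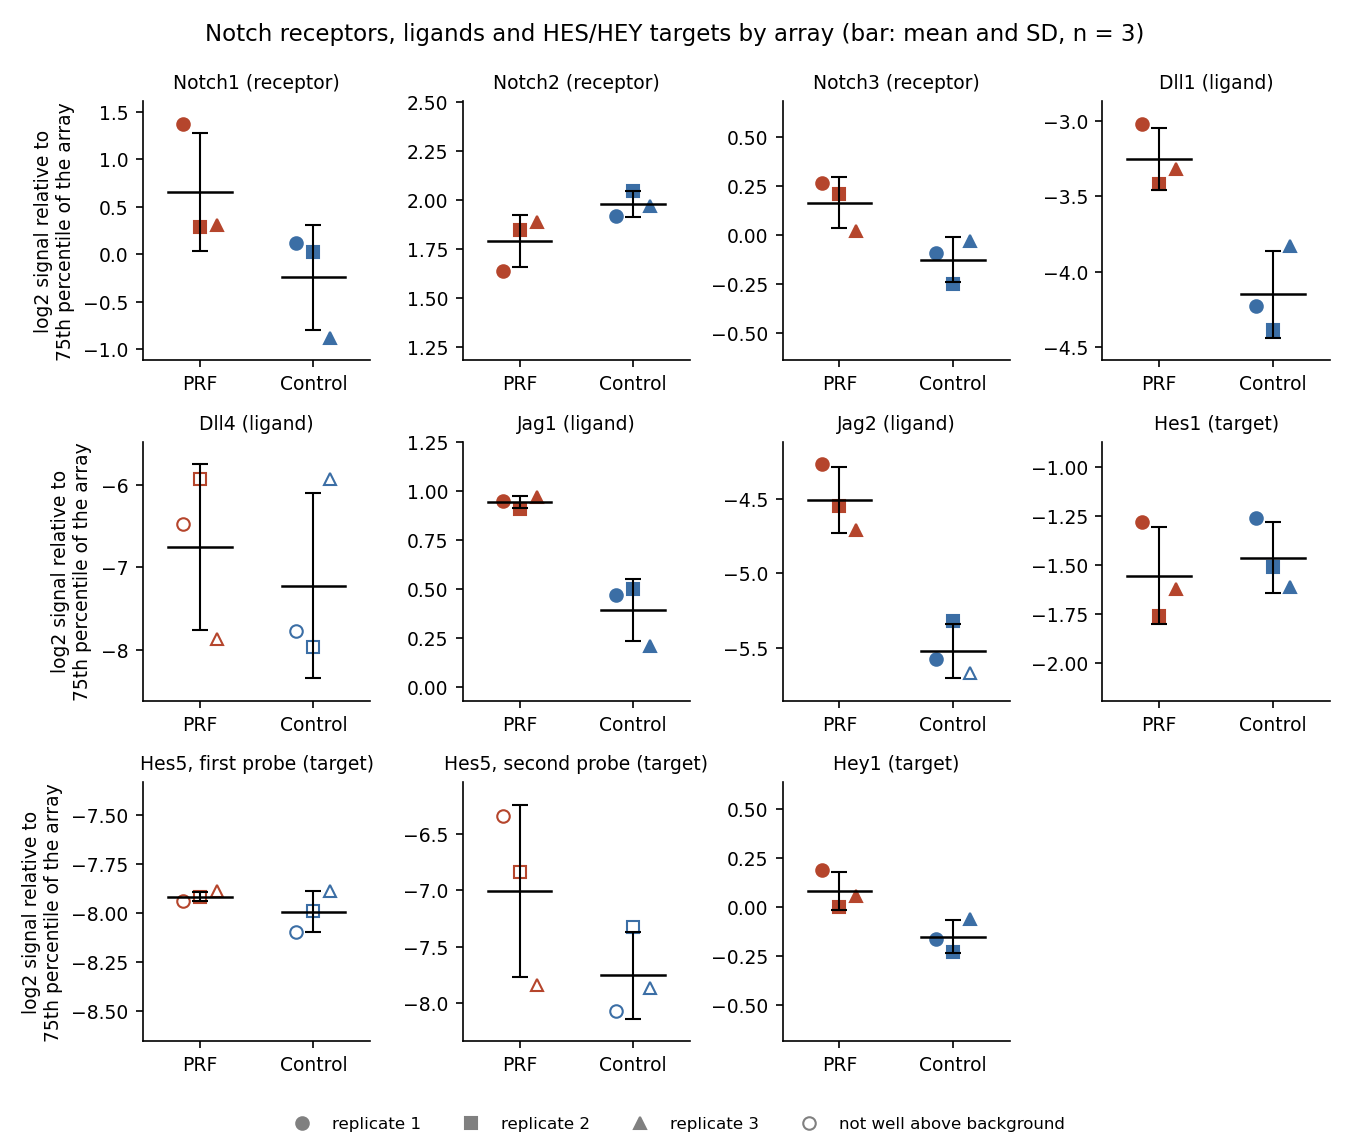
Level of each member probe on each array, as log2 processed signal relative to the array's 75th percentile (vertical axis), with the 3 PRF arrays to the left of the 3 Control arrays bars for the mean and SD (n = 3 in each group), and open symbols where the probe was not well above background. Jag1, Jag2 and Dll1 show PRF points wholly above the Control points, as do Notch1, Notch3 and Hey1, which did not pass the test. The Hes1 points of the groups intermingle, and the Dll4 and Hes5 probes lie at background.

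The ligands Jag1, Jag2 and Dll1 were higher in PRF cells. Jag1 (NM_013822), the Jagged ligand that is widely expressed in glia, had levels of 0.95, 0.91 and 0.97 on the PRF arrays, against 0.47, 0.50 and 0.21 on the Control arrays. Every PRF array lay above every Control array, and the PRF values lay close together. The means were 0.94 ± 0.03 in PRF cells and 0.39 ± 0.16 in Control cells, a change of 0.55 (SE 0.09), or 1.46-fold, with limma's adjusted p = 0.00705. On the deposited scale without scaling between arrays, the change was 0.41 and the call ended (adjusted p = 0.0696).

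Jag2 (NM_010588), the second Jagged ligand, was measured near the lower end of the array's range. Its processed signals were 32.9, 23.3 and 21.1 on the PRF arrays, against 14.1, 15.9 and 11.7 on the Control arrays, which as levels were -4.27, -4.55 and -4.71 in PRF cells and -5.58, -5.32 and -5.67 in Control cells. The groups did not overlap. The change was 1.02 (SE 0.14), or 2.02-fold, with limma's adjusted p = 0.00354. The probe was not well above background on Control array 3, so it entered the test through its PRF arrays. With normexp background correction the change was 0.28, and with quantile normalization it was 0.59; both still passed.

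Dll1 (NM_007865), a Delta ligand best known from neural progenitors, had levels of -3.02, -3.42 and -3.32 on the PRF arrays, against -4.23, -4.39 and -3.83 on the Control arrays. All 6 arrays were well above background and the groups did not overlap. The means were -3.25 ± 0.21 in PRF cells and -4.15 ± 0.29 in Control cells, a change of 0.90 (SE 0.17), or 1.86-fold, with limma's adjusted p = 0.0108. The change was 0.45 with normexp and 0.60 with quantile normalization, and it passed under both. Dll4 (NM_019454), the Delta ligand best known from sprouting vessels, had levels of -6.47, -5.92 and -7.87 on the PRF arrays, against -7.77, -7.97 and -5.93 on the Control arrays. These lie at background and overlap, so no change could be measured for Dll4.

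The slide held its arrays in 2 rows, with both groups in each, and these rows were treated as a batch. With the row as a block, Jag1 was higher by 0.51 (adjusted p = 0.0208), Jag2 by 0.95 (adjusted p = 0.0114) and Dll1 by 0.92 (adjusted p = 0.0293). Within the first row, with 1 PRF and 2 Control arrays, the changes were 0.57 for Jag1 (adjusted p = 0.16), 1.08 for Jag2 (adjusted p = 0.0341) and 0.61 for Dll1 (adjusted p = 0.207). Within the second row, with 2 PRF arrays and 1 Control array, they were 0.46 (adjusted p = 0.252), 0.83 (adjusted p = 0.238) and 1.22 (adjusted p = 0.112). The direction was the same in each row, and of these 6 values only that of Jag2 in the first row passed. All 3 ligand calls held when any 1 array was left out.

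None of the 3 receptors passed the test. Notch1 (NM_008714), the receptor most studied in neural progenitors, had levels of 1.37, 0.28 and 0.31 on the PRF arrays, against 0.12, 0.02 and -0.88 on the Control arrays. The groups did not overlap, but the first PRF array and Control array 3 each stood about a unit from the rest of their group. The change was 0.90 (SE 0.38), as large as that of Dll1, with limma's adjusted p = 0.125. It was 0.54 when the first PRF array was left out, and 0.59 when Control array 3 was. Within the array rows it was 0.66 and 0.83, and with normexp, at 0.84, it passed (adjusted p = 0.0415).

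Notch3 (NM_008716), a receptor best known from the mural cells of vessels, had levels of 0.27, 0.21 and 0.02 on the PRF arrays, against -0.09, -0.25 and -0.03 on the Control arrays. The groups did not overlap, though the lowest PRF array and the highest Control array lay close together. The change was 0.29 (SE 0.10, adjusted p = 0.0657). It passed with the trend and robust options of limma (adjusted p = 0.0275), and without PRF array 3 at 0.36 (adjusted p = 0.0381).

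Notch2 (NM_010928), a receptor broadly expressed in glia, was the 1 member whose Control arrays all lay above its PRF arrays. Its levels were 1.64, 1.85 and 1.89 on the PRF arrays, against 1.92, 2.05 and 1.97 on the Control arrays. The change was -0.19 (SE 0.09, adjusted p = 0.16). It passed on the deposited scale (-0.33, adjusted p = 0.0387) and with scaling on spike-in probes (-0.38, adjusted p = 0.0253). Those scales also moved the median change of all tested genes, at -0.15 for the first and -0.20 for the second, against -0.01 under the 75th percentile.

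Neither of the measurable HES and HEY targets passed. Hes1 (NM_008235), a repressor induced by Notch and by other signals, had levels of -1.28, -1.76 and -1.62 on the PRF arrays, against -1.26, -1.51 and -1.61 on the Control arrays. The groups overlapped almost fully. The change was -0.09 (SE 0.15, adjusted p = 0.667), with a 95% interval of -0.46 to 0.27. That interval still allows a modest change in either direction, and lies below the fitted changes of Jag1, Jag2 and Dll1.

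Hey1 (NM_010423), a repressor of the HEY subfamily, had levels of 0.19, 0.00 and 0.06 on the PRF arrays, against -0.16, -0.23 and -0.06 on the Control arrays. The PRF arrays all lay above the Control arrays by a narrow margin. The change was 0.24 (SE 0.08, adjusted p = 0.0726), with a 95% interval of 0.04 to 0.43, and it passed with the trend and robust options (adjusted p = 0.0451). Hes5 (NM_010419), the target most tied to RBPJ in neural progenitors, could not be measured. Its first probe read -7.94, -7.92 and -7.89 on the PRF arrays, against -8.10, -7.99 and -7.89 on the Control arrays. Its second probe read -6.34, -6.84 and -7.84 on the PRF arrays, against -8.07, -7.33 and -7.87 on the Control arrays. None of these readings stood well above background.

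**Figure D2:**
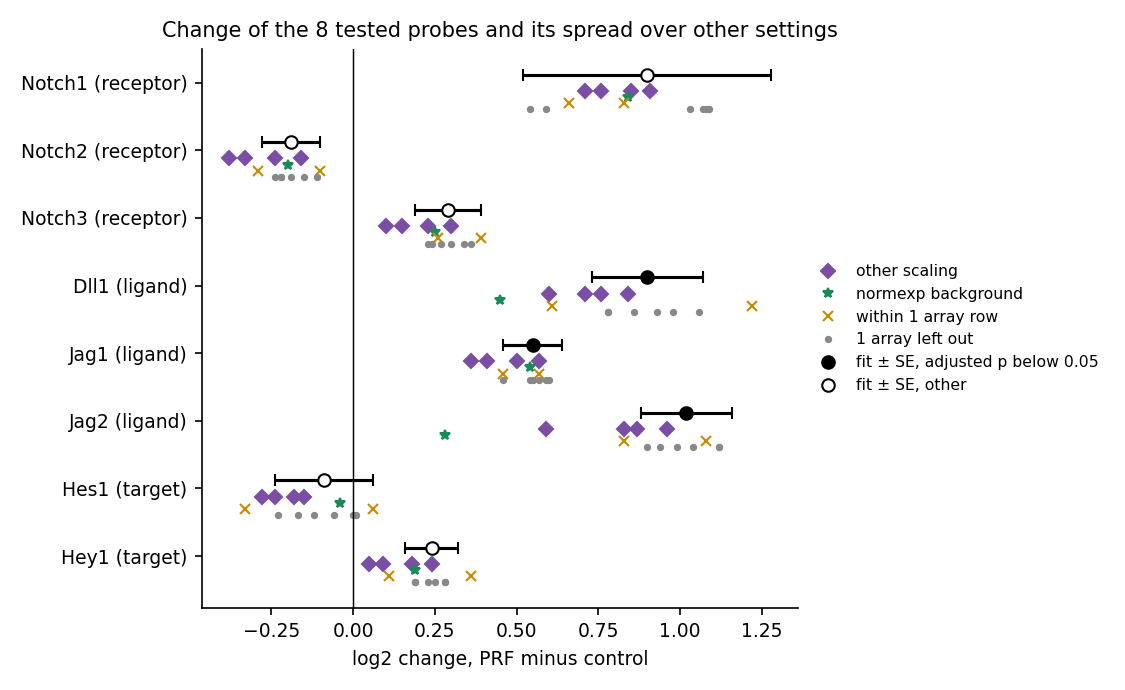
Change of each tested member probe, as the log2 level in PRF cells minus that in Control cells (horizontal axis). Circles give the fit with its SE, filled where it passed the test, and the smaller symbols give the same change under other scalings, with normexp, within 1 array row and with 1 array left out. The 3 ligands at 0.55 to 1.02 passed the test, Notch1 at 0.90 had the widest error, and Notch2 and Hes1 lay below 0.

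Of the 8 tested members, 7 had groups that did not overlap, 6 with the PRF arrays higher and 1, Notch2, with them lower. Over all tested probes, 50.2% did not overlap, with 27.7% higher and 22.5% lower. The median change was 0.42 over the 8 members and 0.02 over all tested probes. Since Jag2 entered the test only through its PRF arrays, these figures describe the members and support nothing further.

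The rest of the pathway was read from a list of 64 other genes, with 1 probe a gene, the brightest. Of these, 63 had a named probe and 55 were tested, and their p-values were adjusted over the 15069 genes tested. In PRF cells 12 genes rose (21.8%) and 5 fell (9.09%), against 17.2% higher, 14.9% lower and 32.2% in either direction over all genes. The median change was 0.02 for the list and -0.01 for all genes. Of the 12 genes that rose, 5 were not well above background on every Control array and entered the test through their PRF arrays, among them Hes2, Dll3, Dtx1 and Neurog2. The split depended on the scaling between arrays. It was 9 higher and 11 lower with the median, 9 and 8 with quantile normalization, 5 and 14 on the deposited scale, and 6 and 17 with spike-ins. Over all tested genes, 53.6% of calls were higher under the 75th percentile, against 31.8% on the deposited scale and 23.9% with spike-ins.

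**Figure D3:**
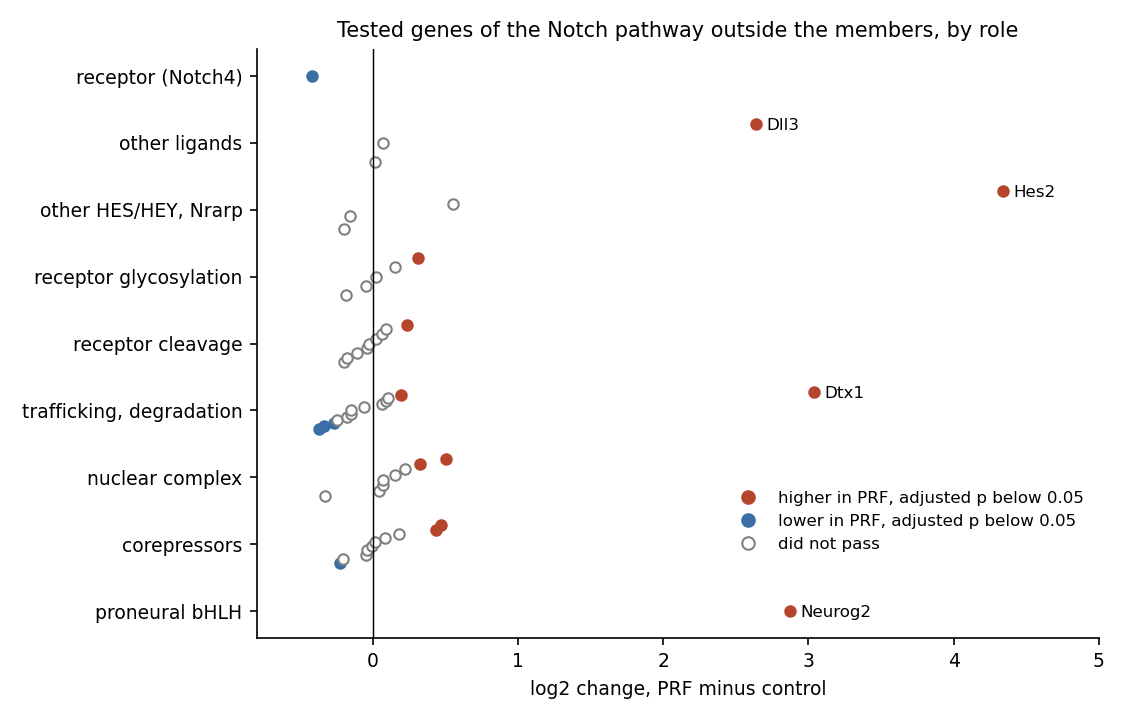
Change of the tested genes of the wider Notch list that are reported here, grouped by role, as the log2 level in PRF cells minus that in Control cells (horizontal axis). Most genes lie within 0.5 of 0, and Hes2, Neurog2, Dll3 and Dtx1 stand to the right. The positions of Dll3 and Dtx1 rest on Control signals at background and are not bounds. Those of Neurog2 and Hes2 rest in part on such signals.

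Hes2, a less studied repressor of the HES family, was higher in PRF cells. Its levels were -0.78, -1.22 and -1.72 on the PRF arrays, against -5.21, -5.94 and -5.60 on the Control arrays. The lowest PRF array lay far above the highest Control array. The change was 4.34 (SE 0.28), or 20.3-fold, with limma's adjusted p = 1.93e-04. That fold rests on Control signals of 18.2, 10.4 and 12.3, which are near background, so its size is uncertain. The probe was not well above background on the second Control array, and with normexp the change was 2.21. The call held under all 19 alternatives that gave it a value. The remaining alternative, a filter for probes well above background on all 6 arrays, left Hes2 out. Of the other genes of this role, Hes3 (0.55, adjusted p = 0.152), Hes6 (-0.20, adjusted p = 0.0561) and Hes7 (-0.16, adjusted p = 0.133) did not pass, and Hey2, Heyl and Nrarp stayed at background everywhere.

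The divergent ligand Dll3, which in mice inhibits Notch inside the cell that makes it, had levels of -2.98, -3.22 and -3.73 on the PRF arrays, against -5.92, -5.75 and -6.17 on the Control arrays. No Control array measured it above background, so the PRF mean was at least 5.50-fold higher on the processed signals (limma's adjusted p = 3.92e-04). Such a bound sets the PRF mean, taken without its error, against a Control signal. That signal was the lowest that counted as well above background on the Control arrays, or the probe's own signal where that was higher. The noncanonical ligand Dner, at 0.07 (adjusted p = 0.461), and the delta-like gene Dlk2, at 0.01 (adjusted p = 0.923), did not pass.

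Dtx1, an E3 ubiquitin ligase that binds the Notch intracellular domain and is itself a known Notch target in lymphocytes, had levels of -3.85, -3.86 and -4.68 on the PRF arrays, against -6.44, -7.20 and -7.87 on the Control arrays. All of its Control signals were at background, and the PRF mean was at least 3.11-fold higher on the processed signals (limma's adjusted p = 0.0026). With normexp, which pulls dim probes together, the change was 0.82 for Dll3 and 0.62 for Dtx1, and both passed. Both changes are smaller than the bounds, so the bounds hold for the processed signals only.

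The proneural factor Neurog2, which starts neuronal programmes and which HES proteins repress, was also higher in PRF cells. It had levels of -2.56, -3.23 and -3.49 on the PRF arrays, against -5.30, -5.97 and -6.64 on the Control arrays. The groups did not overlap, and 1 of the 3 Control arrays measured the probe above background. The fitted change was 2.87 (SE 0.38), with limma's adjusted p = 0.00281; since the other Control signals were at background, no fold is given. With normexp the change was 1.05. Of the other proneural genes on the list, Neurog1, Neurog3, Neurod1 and Atoh1 were not tested. Neurog1 was well above background on 2 PRF arrays and 1 Control array, and Neurog3, Neurod1 and Atoh1 on no array. Within the second array row, which holds 3 arrays, the fitted change of Dll3 was 2.40, against 2.64 over all arrays, and did not pass (adjusted p = 0.0658). Within the first and second row, those of Dtx1 were 3.29 (adjusted p = 0.0843) and 2.93 (adjusted p = 0.0522), and those of Neurog2 were 2.74 (adjusted p = 0.105) and 2.94 (adjusted p = 0.0633).

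**Figure D4:**
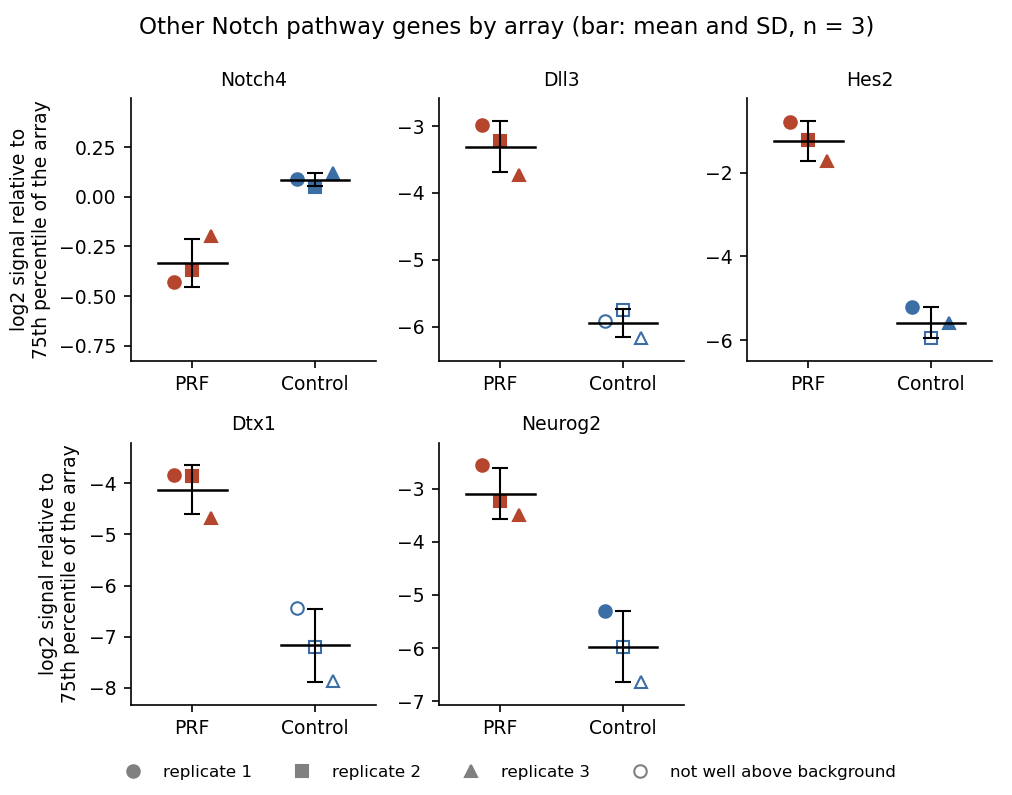
Level on each array of the wider-list genes described in most detail, as log2 processed signal relative to the array's 75th percentile (vertical axis), with PRF arrays to the left of Control arrays, bars for the mean and SD (n = 3 in each group), and open symbols where the probe was not well above background. Hes2, Dll3, Dtx1 and Neurog2 lie higher on the PRF arrays and Notch4 lies lower.

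Notch4, the receptor best known from endothelium, fell in PRF cells. Its levels were -0.43, -0.37 and -0.20 on the PRF arrays, against 0.09, 0.05 and 0.12 on the Control arrays, with no overlap. The change was -0.42 (SE 0.07), so that Control cells were 1.34-fold higher, with limma's adjusted p = 0.00821. The second Notch4 probe was below background. The call held when any 1 array was left out, and ended within each array row; over all alternatives the change lay between -0.61 and -0.35.

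Of the 5 genes for receptor glycosylation, Lfng, a fringe enzyme that tunes which ligands a receptor answers to, rose by 0.31 (adjusted p = 0.0375). The other 4 did not pass. Of the 9 tested cleavage genes, Furin, the protease that cuts the immature receptor, rose by 0.23 (adjusted p = 0.0382). Adam10, the ligand-dependent sheddase, was at -0.04 (95% interval -0.27 to 0.19), and Ncstn, a gamma-secretase subunit, at 0.02 (95% interval -0.22 to 0.26).

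Among the 13 genes for ligand and receptor trafficking or degradation, 2 rose and 3 fell. Besides Dtx1, the rise was of Mib1, an E3 ligase that sends ligands for endocytosis, at 0.19 (adjusted p = 0.0461). The falls were of Neurl1a, at -0.34 (adjusted p = 0.0137), Neurl1b, at -0.37 (adjusted p = 0.0208), and Dtx2, at -0.27 (adjusted p = 0.015). The first 2 of these 3 are Neuralized E3 ligases that also act on ligands, and Dtx2 is a relative of Dtx1. A second Neurl1b probe, at 0.13, did not pass. Aak1, another gene of this role, did not pass at its brightest probe (0.09). Its other probe, well above background on all arrays, was higher by 1.49 (limma's adjusted p = 1.31e-04 over probes). The counts by gene leave that probe out.

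In the nuclear complex, Rbpj itself was at 0.04 (95% interval -0.12 to 0.21) at its brightest probe and did not pass. Its other probe was at 0.32 (95% interval 0.04 to 0.6) and did not pass either (limma's adjusted p = 0.0817 over probes). Of the 8 genes, Maml3, a Mastermind coactivator, rose by 0.50 (adjusted p = 0.0409) and Crebbp, a histone acetyltransferase, by 0.32 (adjusted p = 0.0135). The probes of Maml3 disagreed: its other probe was lower by 0.47 (-0.47, adjusted p = 0.00964 over probes), and the mean of its probes gave 0.01. Of the 10 corepressor genes, Tle3 rose by 0.47 (adjusted p = 0.00596) and Tle4 by 0.43 (adjusted p = 0.0164), while Tle2 fell by 0.23 (adjusted p = 0.0266). These 3 encode Groucho-type proteins, which HES factors recruit. Cir1, another corepressor gene, was at -0.01 at its brightest probe and did not pass. Its other probe was lower (-0.58, limma's adjusted p = 0.0431 over probes).

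Several of these smaller calls lay close to the threshold. Leaving out any 1 of the 6 arrays ended the calls of Furin, Mib1 and Tle2, while the changes stayed at 0.19 to 0.26 for Furin, 0.16 to 0.21 for Mib1 and -0.26 to -0.20 for Tle2. Leaving out any array but PRF array 3 ended the call of Lfng, at 0.23 to 0.33, and without PRF array 3 the call held at 0.38. With the array row as a block, the calls of Lfng (adjusted p = 0.0698), Furin (adjusted p = 0.0875), Mib1 (adjusted p = 0.0657), Maml3 (adjusted p = 0.0722) and Tle2 (adjusted p = 0.0575) ended too. The Maml3 call ended without the first or second PRF array or the first or second Control array. The Neurl1b call ended without the first or second PRF array or Control array 2 or 3. The calls of Crebbp and Tle4 ended without the second PRF array, and that of Dtx2 without that array or the second Control array. The calls of Crebbp, Tle4, Furin, Lfng, Mib1 and Maml3 ended with spike-in scaling and with no scaling at all, and that of Tle3 with no scaling. No gene of this paragraph passed within either array row, and neither did Neurl1a.

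All 6 samples were hybridised on 1 slide. The share of probes well above background was 62.1% to 63.9% on the PRF arrays, against 59.5% to 61.2% on the Control arrays. The part of this gap in the changes of the dim probes (Jag2, Dll1, Dll3, Dtx1, Hes2 and Neurog2) was not tested. Of 10 astrocyte markers, 8 were above background on all arrays at 1 or more probes, while Gja1, a gap junction gene, and Slc1a3, a glutamate transporter, were above it on none. All 5 oligodendrocyte markers were also above background on every array at 1 or more probes. Other probes of Aqp4, Mbp and Mog were not. Of 5 microglial markers, Aif1, Cx3cr1 and P2ry12 were on no array above background. The summed linear level of the microglial list was 12.7 to 17.4 on the PRF arrays, against 8.44 to 8.88 on the Control arrays, nearly all from Itgam. Tmem119, the other microglial marker above background on all arrays, was lower in PRF cells by 0.25 (-0.25, adjusted p = 0.0483). Of 5 endothelial markers, Cdh5 and Cldn5 were above background on no array, and the summed level was 0.18 to 0.213 on the PRF arrays, against 0.143 to 0.149 on the Control arrays. Within that list Kdr, a VEGF receptor, was above background on no Control array, entered the test through its PRF arrays and was at least 2.40-fold higher there (limma's adjusted p = 5.96e-05). Pecam1, the endothelial marker above background on all 6 arrays, was at -0.09 and did not pass (adjusted p = 0.276). The part of these marker changes in the Notch results was not tested. In bulk RNA, a change in the share of cells that express a gene and a change in RNA per cell cannot be told apart.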

How the data were processed

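RNA of 3 PRF and 3 Control samples of C8D1A cells (RNA integrity number of at least 9.5, per the labels' protocols) was labelled with Cy3 and hybridised to one-colour Agilent arrays. The deposited values are intensities: per the file headers, Agilent Feature Extraction 10.7.3.1 subtracted the background and wrote a processed signal for each spot. The deposited series table held the same intensity for 100.0% of probes within 0.0001. Control spots and flagged outlier spots were left out, and spots of 1 probe were averaged. The log2 of the deposited signal minus each array's 75th percentile was the response in a linear model without covariates (limma 3.58.1, R 4.3.3; empirical Bayes statistics) over 34838 probes, or over the brightest probe of each of 15069 genes. The saturation flag was set for 0 probes. The number of arrays limits the precision, and p-values measure the spread between these samples, which the design text calls independent experiments.

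Members were named through the transcript in the files. RefSeq tables named 32994 probes and left 23611 unnamed, and 1 listed pathway gene had no named probe. The array was designed on an older build, so gene coordinates are given only for RefSeq promoters. All 10 members are named with every probe, and of each role group up to 3 called genes with the largest change in each direction; 1 gene that this rule names is not reported here. The members and lists were chosen with earlier results of these data known. The fit was tested on simulated data. The 20 alternatives changed the scaling, background correction, filter, probe choice, eBayes options, block or arrays used.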

Additional observations from a re-analysis of the deposited data

How the results depend on the processing

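Of 486 values of single genes, over 25 genes and 20 alternatives, 362 kept their direction and their side of the threshold, 115 kept the direction but no longer passed, 6 newly passed and 3 changed sign. The 3 were of Hes1, at 0.06 within the second array row, 0.01 without the second PRF array and 0.00 without the first Control array (-0.23 to 0.01 with 1 array left out). The 3 calls among the members became 5 with the trend and robust options, 1 within the first row and 0 within the second (limma; 3 at an unadjusted p under 0.05), and 3 to 4 when 1 array was left out. The 17 calls on the pathway list became 11 without a filter, 11 with the row as a block, 3 and 1 within the first and second row, and 7 to 16 when 1 array was left out: 10 without the first and 7 without the second PRF array, 11 without the first and 10 without the second Control array. The 4845 genes called became 7765 with spike-in scaling, 1451 and 688 within the rows, and 3104 (without the second PRF array) to 4883 with 1 array left out. The 10833 probes became 3266 within the first row, 0 within the second (limma; 6663 at an unadjusted p under 0.05), and 7245 to 10928 with 1 array left out. Fewer arrays entered these within-row fits. A lone array was assumed to vary like the others in its fit. Replicate numbers are shared by the groups and coincide with array columns. The correlations of same-numbered deviations were 0.145, -0.084 and 0.046, not all of them above 0.1, and the labels do not say whether the numbers pair the samples. With the number as a replicate block, the calls of Lfng, Furin, Mib1, Maml3 and Tle2 ended, and 3 members, 12 pathway genes, 4392 genes and 9422 probes passed. Scaling moved the share of called probes that were higher, 59.2% under the 75th percentile, to 49.5% with the median, 41.4% with quantiles, 38.3% on the deposited scale and 29.2% with spike-ins. Signal over background limits Dll4, Hes5, Jag2 and the other dim probes.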

Other observations

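Markers of neural lineages, which lie outside the Notch lists, held calls in both directions. Sox2, a transcription factor of neural progenitors, had levels of 4.02, 4.0 and 4.16 on the PRF arrays, against 4.45, 4.44 and 4.46 on the Control arrays, a change of -0.39 (limma's adjusted p = 0.00581). Sox10, a transcription factor of the oligodendrocyte lineage, was at -0.36 (limma's adjusted p = 0.0396). Snap25, a protein of synaptic vesicle release, was higher by 0.97 (limma's adjusted p = 0.0123), though its second probe was not above background on any array. Mbp, a myelin protein, was higher by 0.99 at 1 of its 3 probes (limma's adjusted p = 0.00801), and the other two were not tested. Of 4 tested progenitor markers, 0 rose and 1 fell, and of 3 tested neuron markers, 1 rose and 0 fell. Of 5 tested oligodendrocyte markers, 1 rose and 2 fell. All marker lists together also cover astrocytes, microglia, endothelium, mural cells and fibroblasts. Over these pooled lists, 6 genes rose (19.4%) and 5 fell (16.1%) of 31 tested. Over all tested genes 17.2% were higher and 14.9% lower, so the pooled shares are near the background. The genes named were chosen for this paragraph after their values were seen.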
